A study of Homo sapiens with 24 samples.

Results

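The OAS and SAMD9 antiviral effectors described here are 6 human genes, OAS1, OAS2, OAS3, OASL, SAMD9 and SAMD9L, out of 29794 genes in the deposited count tables. The list was selected on earlier results of these same libraries. The reason was that OAS3 and SAMD9 were among the lowest genes in cells expressing a miRNA with the miR-302a seed. Their 3′UTRs held no match to that seed. The values of these genes in cells with these miRNAs (miR-302a, miR-372, miR-373) against empty vector are therefore given as a description without a test, and tests are given only for the other miRNAs and for miRNAs compared with each other.

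The libraries are poly(A)+ RNA-seq of Flp-In T-REx 293 cells, a derivative of the human embryonic kidney line HEK293. Cells carried a lentiviral vector with a doxycycline-inducible CMV promoter that transcribes GFP, with the miRNA hairpin in an intron of the transcript. Controls carried the parent GFP vector without a hairpin, called empty vector. Selection in Geneticin (1 mg/mL, 6 days) and induction with doxycycline (1 μg/mL, 7 days) applied to all cells, controls included. Batch 1 held empty vector, miR-1 and miR-122 with 2 replicates each, and batch 2 held empty vector, miR-373, miR-372, miR-302a, miR-155 and miR-133a with 3 replicates each, each replicate transduced and maintained separately. Comparisons were made within a batch, with that batch's empty vector as control, so batch and miRNA cannot be told apart between batches. The miRNAs were expressed in cells of 1 line, and the labels name no infection or interferon treatment.

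The OAS genes encode oligoadenylate synthetases, which sense double-stranded RNA and make a short oligoadenylate messenger. That messenger switches on the degradation of viral and cellular RNA. OASL is a synthetase-like relative that lacks this enzymatic activity and acts on RNA sensing instead. SAMD9 and its neighbour SAMD9L encode large cytoplasmic proteins that restrict poxviruses and limit cell growth. All are classic interferon-induced genes, switched on through JAK-STAT signalling and factors that bind interferon-stimulated response elements in promoters. A miRNA represses an mRNA mainly by pairing of its seed, bases 2 to 8 from the 5′ end, with the 3′UTR.

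The mature miRNAs are shown because the comparison turns on their seeds. The sequences are from RefSeq (GRCh38.p14), written 5′ to 3′ with the seed in capitals.
miR-1: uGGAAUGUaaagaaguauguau
miR-122: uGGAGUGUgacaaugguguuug
miR-133a: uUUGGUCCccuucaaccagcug
miR-155: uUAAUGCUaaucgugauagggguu
miR-302a: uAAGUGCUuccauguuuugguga
miR-372: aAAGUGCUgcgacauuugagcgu
miR-373: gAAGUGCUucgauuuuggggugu
The last 3 share the seed AAGUGCU and differ outside it. miR-302a was identical to miR-372 at 14 of 23 positions and to miR-373 at 17 of 23, and miR-372 was identical to miR-373 at 16 of 23. Each of the other 4 miRNAs had a seed of its own.

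OAS1 (ENSG00000089127, chr12:113343661-113371024), OAS3 (ENSG00000111331, chr12:113375856-113414265) and OAS2 (ENSG00000111335, chr12:113416200-113449528) lie side by side on the plus strand of chromosome 12 in GRCh37. OASL (ENSG00000135114, chr12:121455566-121477049) is on the minus strand of the same chromosome. SAMD9 (ENSG00000205413, chr7:92728826-92747336) and SAMD9L (ENSG00000177409, chr7:92759369-92777698) are neighbours on the minus strand of chromosome 7. An annotated long non-coding RNA on the opposite strand overlaps OAS1, OAS2 and OAS3, and the authors' counting used strand.

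Library totals ranged from 20153452 to 21595191 counted reads in batch 1 and from 13047400 to 35040778 in batch 2, where miR-373 replicate 3 was deepest. Known targets lay below every control library in the cells labelled for their miRNA, namely SLC7A1 (miR-122), TWF1 (miR-1), TAGLN2 (miR-133a), BACH1 (miR-155) and LATS2 (all 3 miRNAs with the AAGUGCU seed). The 5 genes measured as markers of this line (VIM, KRT8, KRT18, NEFM and PAX2) had reads in every library, with VIM at 908 CPM (reads per 1000000 counted reads after TMM scaling of library totals) or more. Among the marker lists of other cell types, PTPRC and CD3E never exceeded 4 reads, and COL1A2 and DCN never exceeded 2. In contrast, CD68, CD14, COL1A1 and PDGFRA of these lists were read in every library. CD68 was at 6.53 to 8.57 CPM in batch 1 and 6.58 to 12.7 CPM in batch 2, most of the leukocyte sum below. CD14 and PDGFRA had at most 43 and 32 reads. The summed CPM of the 6 leukocyte genes was 9.82 to 10.7 in batch 2 controls and 7.05 to 13.6 in the miRNA groups. The 5 fibroblast genes summed to 12.4 to 15.9 CPM in batch 2 controls and to 16.7 to 26.7 CPM in cells with an AAGUGCU-seed miRNA, nearly all of it COL1A1, and the part of this in the results below was not tested. miR-372 replicate 2 and miR-155 replicate 2 stood farthest from the other replicates of their groups, with root-mean-square log2 differences of 0.354 and 0.321 against 0.126 to 0.303 for the other libraries.

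Of the 6 members, only OAS3 and SAMD9 had enough reads to be tested, in both batches. In these cells the rest were near or at 0. OAS1, a synthetase with several splice forms, had 4 reads in all 24 libraries together and none in batch 2, where 3 reads per library correspond to 0.0849 to 0.235 CPM. OAS2, the synthetase with a duplicated core, had 12 reads in total and 0 in 17 libraries. SAMD9L also had 12 reads in total and 0 in 17 libraries, with at most 3 in any library. OASL had 36 reads, was at 0 in 5 libraries and reached 5 reads in miR-122 replicate 2. In batch 2 the 9 libraries of the miR-302a seed group held 0 reads of OAS1 and SAMD9L, and the 3 empty vector libraries held 0 and 1. At this depth a difference of these 4 genes between groups was not detectable, so no fold is given for them.

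**Figure D1:**
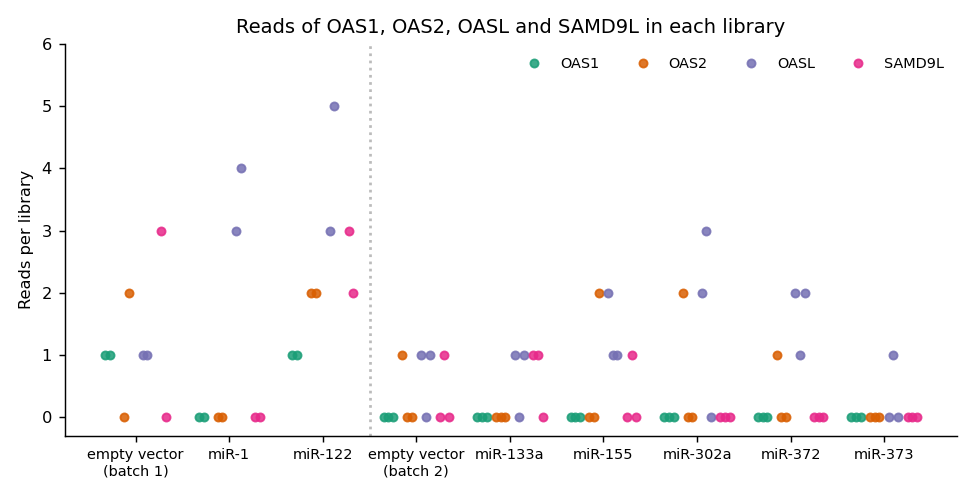
Reads per library (y axis) of OAS1, OAS2, OASL and SAMD9L in the 9 groups (x axis), 1 point per library, with a dotted line between the batches. No library holds more than 5 reads of any of these genes.

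OAS3, the largest synthetase, was read at 312 and 340 counts in batch 1 empty vector cells, which is 15.1 and 16.1 CPM. In batch 2 empty vector cells it was read at 162, 226 and 226 counts, or 12.2, 14.9 and 15.8 CPM. SAMD9 was read at 188 and 172 counts (9.09 and 8.13 CPM) in the first set of controls and at 78, 107 and 107 counts (5.85, 7.05 and 7.48 CPM) in the second. Per kilobase of exon, the OAS3 level was 1.98 ± 0.0887 CPM (SD, n = 2) and 1.82 ± 0.242 (n = 3) in the controls of batches 1 and 2, above the SAMD9 level of 1.26 ± 0.0990 and 0.992 ± 0.123. Both genes were thus low in these cells, and every CPM value here rests on between 6 and 340 reads.

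**Figure D2:**
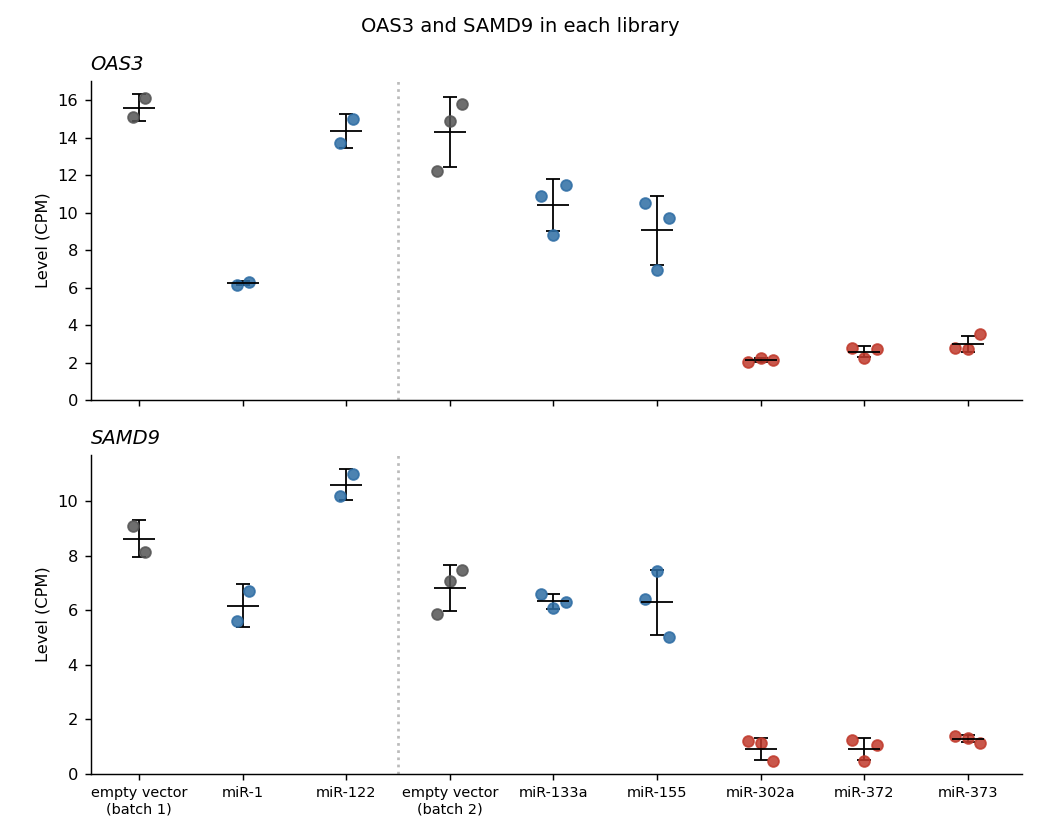
OAS3 (top) and SAMD9 (bottom) level in CPM (y axis) in each group (x axis), 1 point per library, with the mean and SD as bars and a dotted line between the batches. Every miR-302a, miR-372 and miR-373 library sits below every other library for both genes, and the miR-1 libraries sit below both batch 1 controls.

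The values that chose the members came from the miRNAs with the AAGUGCU seed. With miR-302a, OAS3 was at 2.04, 2.24 and 2.14 CPM in the 3 replicates. With miR-372 it was at 2.79, 2.27 and 2.71 CPM, and with miR-373 at 2.78, 2.71 and 3.51 CPM. The highest of these 9 values lay below the lowest empty vector value of 12.2 CPM. Fitted changes were -2.73, -2.45 and -2.22 on the log2 scale (SE 0.186, 0.178 and 0.172) in that order of miRNAs, which leaves 15.0%, 18.3% and 21.5% of the control level. SAMD9 was at 1.19, 1.12 and 0.458 CPM with miR-302a. It was at 1.23, 0.470 and 1.06 CPM with miR-372 and at 1.39, 1.32 and 1.13 CPM with miR-373. Here too the groups did not overlap, since the lowest control was at 5.85 CPM. The fitted changes of SAMD9 were -2.84, -2.82 and -2.43 (SE 0.269, 0.262 and 0.248), or 7.16-fold, 7.07-fold and 5.40-fold lower. The lowest value in miR-302a cells and in miR-372 cells rested on 6 reads each. All 3 comparisons used the same 3 control libraries.

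Non-overlap of this kind was common among all 14054 genes tested in batch 2. Every miRNA library lay below every control library for 15.2% of them with miR-302a, 15.9% with miR-372 and 14.3% with miR-373, beside 2 of the 2 testable members. By the test across all genes (edgeR quasi-likelihood, adjusted p under 0.05), 4.85%, 6.56% and 3.30% were lower and 3.02%, 4.82% and 1.83% were higher in these 3 comparisons. Among the genes called lower whose mean log2 CPM was 1 or more, SAMD9 was the lowest and OAS3 the next in each comparison. Just outside this pair came SP110, an interferon-induced nuclear body protein, at -2.13, -1.91 and -1.80, and then ERAP2, a peptidase that trims antigenic peptides, at -1.84, -1.88 and -1.75. Among all tested genes, without these limits on call and level, SAMD9 ranked 2, 1 and 1 from the lowest and OAS3 3, 4 and 3. These ranks restate the choice of members. In bulk RNA, fewer cells expressing a gene and less of its RNA per cell cannot be told apart.

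The 3 miRNAs with this seed were also compared with each other. Of 14054 genes, 0% passed in each of the 3 direct comparisons by edgeR, with at most 184 genes at an unadjusted p under 0.05 in any of them. DESeq2 called 0 genes for miR-302a against miR-372, 3 for miR-302a against miR-373 and 1 for miR-372 against miR-373, and no member among them. OAS3 was 0.28 lower in log2 with miR-302a than with miR-372 (95% interval of the difference -0.73 to 0.16) and 0.52 lower than with miR-373 (-0.95 to -0.09). Between miR-372 and miR-373 the OAS3 difference was -0.23 (-0.64 to 0.18). SAMD9 differed by -0.02 (-0.72 to 0.68), -0.41 (-1.07 to 0.26) and -0.39 (-1.03 to 0.25) in the same order. The edgeR adjusted p was 1.00 for each of these 6 values, and the intervals leave room for differences of up to 1.07 in log2. miR-302a and miR-372 replicates with the same number deviated together, and the fit with a replicate block called no member there either.

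**Figure D3:**
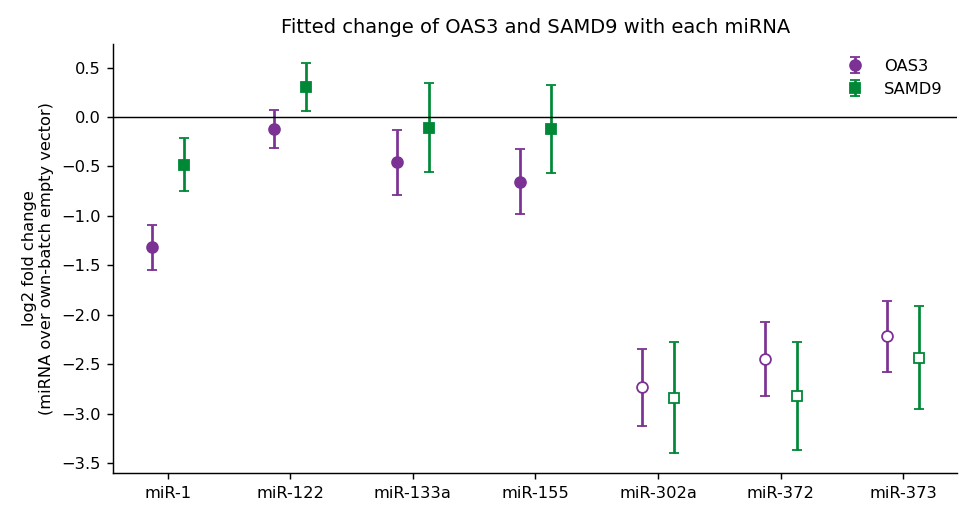
Fitted log2 fold change (y axis) of OAS3 (circles) and SAMD9 (squares) with each miRNA over the empty vector of its own batch (x axis), with 95% intervals as bars. Open symbols mark the comparisons that chose the members, where both genes lie below -2, and with miR-1 OAS3 lies at -1.32 and SAMD9 at -0.49.

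The remaining miRNAs were not used to choose the genes. How many of all genes showed no overlap of libraries was counted only for the AAGUGCU-seed miRNAs. Non-overlap with the remaining miRNAs is therefore given as a description without a background share. miR-1 is a muscle miRNA, and in its cells OAS3 was at 6.16 and 6.32 CPM, far below both control libraries of that batch. OAS3 fell by 1.32 on the log2 scale (SE 0.107, 95% interval -1.54 to -1.10, adjusted p = 2.7e-08 by edgeR), to 40.1% of control, and was lower in 2 of 2 libraries. SAMD9 was at 5.60 and 6.71 CPM with miR-1, also below both controls. Its fitted change was smaller, -0.49 (SE 0.128, interval -0.75 to -0.22, adjusted p = 0.00945 by edgeR), to 71.5% of control. So 2 of 2 tested members were called lower with miR-1, where 13.7% of all 14348 tested genes were lower and 10.8% higher. The OAS3 call held in every alternative, whereas the SAMD9 call was lost with DESeq2 (adjusted p = 0.0723) and without miR-1 replicate 1 (-0.36, edgeR adjusted p = 0.141).

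With miR-122, the main miRNA of liver, OAS3 was at 13.7 and 15.0 CPM and SAMD9 at 10.2 and 11.0 CPM. OAS3 changed by -0.12 (interval -0.31 to 0.08, edgeR adjusted p = 0.529). SAMD9 was above both controls at 0.30 (interval 0.06 to 0.54), but did not pass (edgeR adjusted p = 0.148). Neither member was called, against a background of 4.06% lower and 1.86% higher. In the direct comparison, OAS3 was lower with miR-1 than with miR-122 by -1.20 (SE 0.109, edgeR adjusted p = 7.4e-08) and SAMD9 by -0.78 (SE 0.124, edgeR adjusted p = 8.1e-05). Both members passed this comparison, in which 31.2% of all tested genes did.

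miR-133a, another muscle miRNA, and miR-155, a miRNA of immune cells, were compared with the same batch 2 controls that served for choosing the members. OAS3 was at 10.9, 8.83 and 11.5 CPM with miR-133a, below all 3 controls, where the share of all genes doing so was not counted. Its change of -0.46 (SE 0.157, interval -0.79 to -0.13) did not pass (edgeR adjusted p = 0.0993). It passed with only these 2 groups in the fit (edgeR adjusted p = 0.0188). SAMD9 overlapped the controls at 6.59, 6.06 and 6.31 CPM, a change of -0.11 (interval -0.55 to 0.34, edgeR adjusted p = 0.822). Thus 0 of 2 tested members were called with miR-133a, beside 3.97% lower and 1.37% higher among all genes.

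With miR-155, OAS3 was at 10.5, 6.96 and 9.70 CPM, again below all 3 controls and again without a counted share of all genes. It fell by 0.65 on the log2 scale (SE 0.158, interval -0.99 to -0.32, edgeR adjusted p = 0.0151), to 63.6% of control, in 3 of 3 libraries. The call was lost without empty vector replicate 2 (-0.62, edgeR adjusted p = 0.0673), empty vector replicate 3 (-0.57, 0.0789) or miR-155 replicate 2 (-0.50, 0.0913). SAMD9 was at 6.39, 7.42 and 5.03 CPM, which overlapped the controls, with a change of -0.12 (interval -0.56 to 0.33, edgeR adjusted p = 0.777). So 1 of 2 tested members was called with miR-155, beside 4.81% lower and 2.82% higher among all genes. The difference between miR-133a and miR-155 was 0.20 for OAS3 (interval -0.14 to 0.53, edgeR adjusted p = 0.452) and 0.01 for SAMD9 (interval -0.44 to 0.46, edgeR adjusted p = 0.981), where 16.7% of genes passed.

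The proportion of the 2 genes varied across the groups. Reads of OAS3 per read of SAMD9 were 1.66 and 1.98 in batch 1 controls and 2.08 to 2.11 in batch 2 controls. The ratio was 1.10 and 0.942 with miR-1 and 1.34 and 1.37 with miR-122, all below both controls. It was 1.46 to 1.83 with miR-133a and 0.938 to 1.93 with miR-155, also below the controls of their batch. With miR-302a it was 1.71, 2.00 and 4.67, with miR-372 it was 2.26, 4.83 and 2.56, and with miR-373 it was 2.00, 2.05 and 3.10. The 2 highest of these ratios were those with 6 reads of SAMD9.

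Seed matches were then counted in the longest annotated protein-coding 3′UTR of each gene, as an 8mer, a 7mer to bases 2 to 8, or a 7mer to bases 2 to 7 followed by A. For the AAGUGCU seed, whose 7mer match is AGCACTT, 26% of 19306 genes held a match. OAS3 (6487 bases of 3′UTR) and SAMD9 (1815 bases) held none there, which restates the choice, and their open reading frames and 5′UTRs held none either. Of the 6 members, OAS1 alone had such a 3′UTR match, a 7mer ending in A, and SAMD9L had 2 matches in its open reading frame. Both of those genes were near 0 reads. When any annotated protein-coding transcript was allowed, OAS3 gained a match, in the 649-base 3′UTR of 1 short transcript of 14. That stretch is intronic in the transcript with the longest open reading frame. The 8mer of SAMD9L is shown in DNA letters on the gene's minus strand, with the match in capitals, as the longest match to this seed among the members (GRCh37).
SAMD9L, reading frame, chr7:92763989-92763996: aaaccaaataaAGCACTTAgattttttaaa
The counts here do not separate transcripts, so the share of OAS3 reads from the short form was not measured.

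The matches of the other miRNAs are given beside the changes. The 3′UTR of OAS3 held a 7mer match ending in A for miR-1 and 2 matches for miR-122, and OAS3 fell with miR-1 but was not called with miR-122. SAMD9 held no 3′UTR match for miR-1, with which it fell, and 2 for miR-133a, with which it stayed at 92.9% of control without a call. Neither gene held a 3′UTR match for miR-155. In its open reading frame, SAMD9 held 3 matches for miR-133a, 1 for miR-122, 1 for miR-155 and none for miR-1. The reading frame of OAS3 and the 5′UTRs of both genes held none for these miRNAs. The share of all genes with a reading frame match was not counted. A 3′UTR match for these seeds was found in 21.4% of all genes (miR-1), 23% (miR-122), 15.1% (miR-133a) and 16.6% (miR-155). The miR-1 match of OAS3 and both miR-133a matches of SAMD9 are given below (GRCh37, match in capitals, OAS3 on the plus and SAMD9 on the minus strand).
OAS3 for miR-1, chr12:113410115-113410121: ggggtgtatttCATTCCAggccctcagtct
SAMD9 for miR-133a, chr7:92730138-92730144: tccaaaacagaGGACCAAccagtcttctga
SAMD9 for miR-133a, chr7:92729412-92729419: gaaattgcaaaGGACCAAAaaaatgttggg

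OAS3 and SAMD9 share a promoter feature that the rule did not use. The members are interferon-induced genes, so finding this feature is not independent of how they were listed. RefSeq promoter windows from 250 bases before to 50 bases after the transcription start (GRCh38.p14) were at hand for OAS1, OAS3, SAMD9 and SAMD9L, and were searched on both strands for GAAANNGAAA, the repeat at the core of interferon-stimulated response elements. The window of OAS3 held 2 such repeats, at -143 and -12 bases from the start, and that of SAMD9 held 1, at -136. The windows of OAS1 and SAMD9L held none. Among all 35116 promoter windows, 3.57% held at least 1. A match of these letters is not a measure of factor binding. Its lack in a window does not show that the gene has no such element elsewhere or in another form. The repeats are in capitals, on the gene's strand (plus for OAS3, minus for SAMD9).
OAS3, chr12:112938331-112938340: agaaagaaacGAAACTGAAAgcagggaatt
OAS3, chr12:112938462-112938471: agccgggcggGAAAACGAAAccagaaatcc
SAMD9, chr7:93118106-93118115: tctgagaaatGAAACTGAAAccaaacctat

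The genes most like OAS3 and SAMD9 were looked for over the 18 libraries of batch 2, by the root-mean-square difference of log2 CPM centred on the empty vector, among 12298 genes. These 18 include the libraries that chose the pair, so the order is a description. OAS3 and SAMD9 were each other's nearest gene, with a difference of 0.474. After SAMD9, OAS3 was most like SP110 (0.477), ERAP2 (0.605) and CYBRD1, a plasma membrane ferric reductase (0.756). After OAS3, SAMD9 was most like ERAP2 (0.718), SP110 (0.720) and GALNT3, an enzyme that starts O-glycosylation (0.871). SP110 changed by -0.32 with miR-133a and -0.31 with miR-155, closer to 0 than OAS3 at -0.46 and -0.65.

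The chromosomal neighbours of the members were counted beside all genes. Of 18 tested genes, the 3 nearest on each side of the 3 loci, 1 was called lower with miR-302a, 0 with miR-372 and 1 with miR-373, and none was higher, where 4.85%, 6.56% and 3.30% of all genes were lower. The gene called was TFPI2, a serine protease inhibitor 737 kb from SAMD9L, at -0.69 and -0.68. The lowest neighbour value in any of these 3 comparisons was -0.69, against -2.22 or below for OAS3 and SAMD9. With miR-1, 2 of 18 neighbours were lower and 4 higher, where 13.7% of all genes were lower and 10.8% higher.

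The rest of the pathway was followed with 93 listed genes in 7 groups, of which 74 were tested in batch 1 and 73 in batch 2. With miR-302a, 22 were lower, 1 was higher and 50 did not pass, and the median log2 change of the tested genes was -0.22 against -0.001 over all genes. With miR-372, 25 were lower and 2 higher (median -0.24), and with miR-373, 16 were lower and 1 higher (median -0.23). With miR-1, 21 were lower and 3 higher (median -0.11). With miR-122, 1 was lower and 3 were higher, with miR-133a 1 and 1, and with miR-155 4 and 1. Over all tested genes, 4.85% were lower and 3.02% higher with miR-302a, 6.56% and 4.82% with miR-372, and 3.30% and 1.83% with miR-373. The shares were 13.7% and 10.8% with miR-1 and 4.06% and 1.86% with miR-122. For miR-133a they were 3.97% and 1.37%, and for miR-155 4.81% and 2.82%. These shares also stand beside the counts per list below. The miR-1 count was fragile, since DESeq2 called 5 in place of 24 and it was 5, 9 and 15 without miR-1 replicate 1, miR-1 replicate 2 and empty vector replicate 2. Without empty vector replicate 2 of the batch, the counts were 15 in place of 23 for miR-302a, 9 in place of 4 for miR-122 and 1 in place of 2 for miR-133a. The miR-155 count of 5 was 2 without empty vector replicate 2, empty vector replicate 3 or miR-155 replicate 2, and 3 without miR-155 replicate 1.

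**Figure D4:**
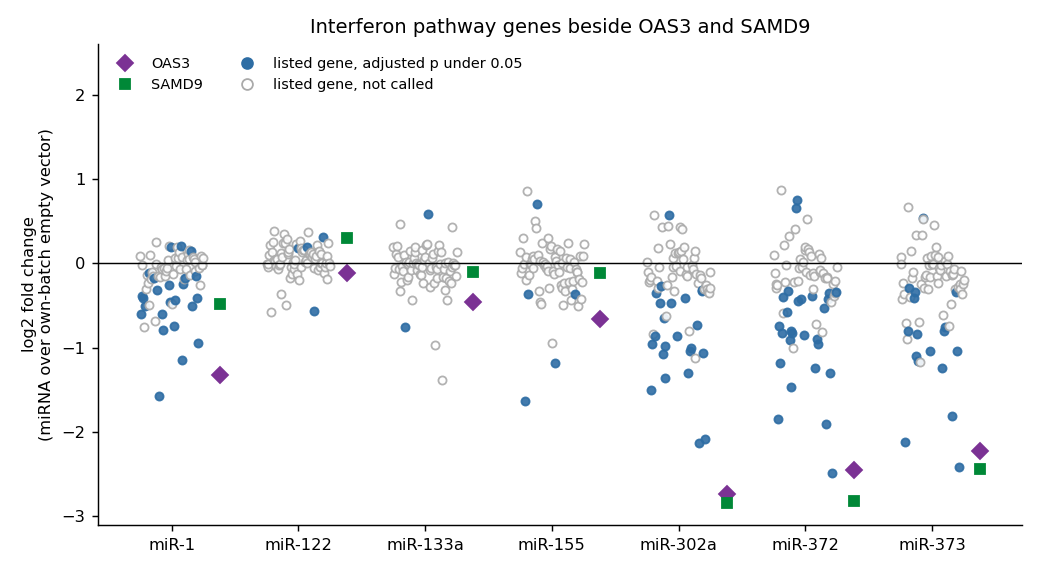
Log2 fold change (y axis) of every tested listed interferon pathway gene with each miRNA over its own-batch empty vector (x axis), filled where edgeR's adjusted p was under 0.05, beside OAS3 (diamonds) and SAMD9 (squares). With miR-302a both members lie below the lowest listed gene, SP110 at -2.13, and with miR-372 and miR-373 TLR3, at -2.48 and -2.42, lies between SAMD9 and OAS3.

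Interferon genes themselves could not be followed. None of the 8 listed ligands, among them IFNB1, IFNG and IFNL1, passed the filter in either batch, and IFNE was the highest with at most 7 reads in a library. Of 12 receptor and signalling genes, all tested, 2 were lower with miR-302a, 4 with miR-372 and 0 with miR-373. JAK1, the kinase shared by interferon receptors, was lower with miR-302a (-0.41, edgeR adjusted p = 0.00187) and miR-372 (-0.39, 0.00218). IFNAR1, a chain of the type I interferon receptor, was lower with the same miRNAs at -0.46 and -0.45. IFNLR1 and TYK2 were called lower with miR-372, at -0.43 and -0.34, and neither passed in the direct comparisons among miRNAs of this seed. IFNLR1 was still called in 3 of 6 and TYK2 in 2 of 6 fits that left out a library. The 4 lower genes became 2, JAK1 and IFNAR1, without empty vector replicate 2, empty vector replicate 3 or miR-372 replicate 2.

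With miR-1, PDE12, which degrades the oligoadenylate messenger, was lower by -0.17 (edgeR adjusted p = 0.0297) and AKAP7 by -0.39 (0.0244), each called in 1 of 4 fits that left out a library.

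Of 10 tested RNA sensors and adaptors, 3 were lower and 7 did not pass with each of the 3 AAGUGCU-seed miRNAs (median log2 changes -0.23, -0.18 and -0.09). IFIH1, the cytoplasmic sensor MDA5, was at 10.1 ± 1.35 CPM in controls and 3.98 ± 1.26, 3.60 ± 0.696 and 4.51 ± 0.928 with miR-302a, miR-372 and miR-373 (SD, n = 3). Its log2 changes were -1.36, -1.46 and -1.16 (edgeR adjusted p = 3.3e-04, 1.1e-04 and 0.00119). TLR3, the endosomal sensor of double-stranded RNA, changed by -2.08, -2.48 and -2.42 (edgeR adjusted p = 0.00696, 0.00151 and 0.00224) from a control level of 0.873 ± 0.219 CPM. EIF2AK2, the kinase PKR, was abundant at 160 ± 9.89 CPM and changed by -0.35, -0.40 and -0.29, the last called in 2 of 6 fits that left out a library. With miR-1, 5 of 10 sensors and adaptors were lower, led by TLR3 (-0.95, edgeR adjusted p = 0.0436) and ADAR, which edits double-stranded RNA (-0.60, 1.4e-08), while MAVS was higher at 0.21. The TLR3 call was lost without any 1 of the 4 libraries, and of the 5 lower sensors 1 was still called without miR-1 replicate 1 and 2 without miR-1 replicate 2 or empty vector replicate 2. The MAVS call was lost without any of these 3 libraries. ADAR and IFITM3 were the 2 miR-1 calls that held in every alternative. With miR-122, PRKRA, an activator of PKR, was lower (-0.57, edgeR adjusted p = 1.4e-06).

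Among interferon regulatory factors, IRF2, which competes at interferon response elements, was lower with miR-302a, miR-372 and miR-373 at -0.86, -0.84 and -1.03 (edgeR adjusted p = 0.00206, 0.00164 and 4.8e-04). The other 6 tested factors did not pass with these miRNAs. IRF8 was lower with miR-155 (-1.18, edgeR adjusted p = 2.3e-05) and higher with miR-133a (0.58, 0.00794), the latter lost without empty vector replicate 2. With miR-1, IRF2 and IRF8 were lower at -0.45 and -0.44, and IRF3 was higher at 0.19, all lost without miR-1 replicate 1.

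Of 40 interferon-induced effectors, 31 were tested in batch 2. With miR-302a 10 were lower and 1 higher, with miR-372 11 and 2, and with miR-373 8 and 1. Of the 10 lower with miR-302a, 6 were still called without empty vector replicate 2, and of the 11 lower with miR-372, 7 without empty vector replicate 1. SP110, described above, was among the lowest, at 1.87 ± 0.831, 2.18 ± 0.225 and 2.35 ± 0.417 CPM against 8.25 ± 0.465 in controls (SD, n = 3; edgeR adjusted p = 9.0e-06, 1.4e-05 and 2.8e-05). CMPK2, a mitochondrial nucleotide kinase, changed by -1.50, -1.84 and -2.12 from a control level of 0.889 ± 0.0280 CPM, and the miR-302a call was lost with DESeq2 (adjusted p = 0.0830), with no filter on low counts and in 4 of 6 fits that left out a library. MX1, a GTPase that blocks influenza virus, changed by -1.30, -1.24 and -1.24, in calls that held in 1, 3 and 0 of 6 fits that left out a library. IFI35 changed by -1.07, -0.91 and -1.09. The gene that was higher in all 3 comparisons, named after its values were seen, was IFITM2, a membrane protein that blocks virus entry, at 0.58, 0.66 and 0.54 (edgeR adjusted p = 0.00876, 0.00234 and 0.0168), with the miR-373 call held in 2 of 6 such fits. The IFITM genes are near copies, so reads may be split unevenly among them. With miR-1, 8 of 32 were lower, led by IFIT2 (-1.57), MX1 (-1.15), IFITM3 (-0.80) and IFITM1 (-0.60), and 3 of the 8 were still called without miR-1 replicate 1 or 2. The leading gene with miR-1, IFIT2, rested on a control level of 0.787 ± 0.224 CPM, and DESeq2 gave it no adjusted p. By DESeq2 the IFITM1 call was lost (adjusted p = 0.124), whereas MX1 and IFITM3 passed (adjusted p = 0.0291 and 0.0338). With miR-155, CMPK2 and DTX3L were lower at -1.63 and -0.36 and IFI6 was higher at 0.70. Of these miR-155 calls, CMPK2 held in 2 of 6, DTX3L in 1 of 6 and IFI6 in 6 of 6 fits that left out a library. With miR-133a, HERC6 was lower at -0.75.

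Class I antigen presentation had 9 tested genes, of which 5, 5 and 4 were lower with the 3 AAGUGCU-seed miRNAs in the same order and none was higher. Of the 5 with miR-302a, 2 to 3 were still called when any 1 of the 6 libraries was left out, with TAPBP and HLA-B among them each time. Of the 4 with miR-373, 2 were still called without empty vector replicate 1 and 1, TAPBP, without miR-373 replicate 2. TAPBP, which loads peptides onto class I molecules, was at 60.8 ± 5.93 CPM in controls and changed by -1.06, -1.30 and -1.04 (edgeR adjusted p = 9.2e-06, 4.9e-07 and 9.6e-06). HLA-B changed by -0.47, -0.58 and -0.41, with the limit that HLA genes are near copies and uniquely mapped reads may be split unevenly among them. TAPBP was higher with miR-122 (0.31, edgeR adjusted p = 7.9e-04).

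Matches to the AAGUGCU seed in the longest 3′UTR were also counted in the listed genes. With miR-302a, 9 of the 22 lower genes held a match, with miR-372 10 of 25 and with miR-373 5 of 16, where 24 of all 73 tested listed genes (32.9%) did, so the lower genes held matches at a share near or above that of the list. SP110, next to the pair in the ranking of called genes above, held 2 matches and TLR3 held 1. That of TLR3 is shown with the match in capitals (GRCh37, plus strand).
TLR3, chr4:187006385-187006391: gtattttggatGCACTTAgaatgaaagata
With miR-1, 7 of 21 lower genes held a match to its seed, where 18 of 74 tested listed genes (24.3%) did. IFIH1, TAPBP, CMPK2 and IFI35, all named above, were among the lower genes without an AAGUGCU match.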

How the data were processed

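Poly(A)+ RNA-seq of 24 libraries was used as deposited. Per the labels and the study's methods, the authors clipped adapters, aligned reads to hg19 with TopHat 2.1.1, and made the deposited counts of whole reads per gene with featureCounts, counting by strand over exons, without normalization. The deposited tables of the authors' own comparisons (fold changes and p-values) were not used.

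Groups came from the sample labels. Members and pathway lists were chosen with earlier results of these data known. Per batch, all groups entered 1 edgeR 4.0.16 quasi-likelihood fit (R 4.3.3, TMM scaling, filterByExpr minimum count 10, prior count 0.125, no covariate), with Benjamini-Hochberg adjustment over all tested genes and a threshold of 0.05. There were 7 comparisons with empty vector and 5 between miRNAs. Intervals are 95%. CPM is reads per 1000000 reads of the TMM-scaled total, and CPM per kilobase uses exon length. The steps were tested on simulated data. Beside the members, the genes named are up to 4 called genes with the largest change per list and comparison, the 4 nearest in pattern, the 3 nearest neighbours on each side of a locus, and 1 known target per seed. Replicate chi-square values per degree of freedom were 1.79 to 33.6, so all replicates differed by more than sampling noise.

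Seed matches were searched in GENCODE transcripts on GRCh37 with pysam 0.24.0. Promoters and miRNAs came from RefSeq on GRCh38.p14. The alternatives were DESeq2 1.42.0 (size factors, Wald test), no filter, a 1 CPM minimum in all libraries, only the 2 groups compared, a replicate block, and leaving out each library. As a check of pairing, deviations of same-numbered libraries correlated at over 0.1 in all pairs for miR-133a with miR-155 (0.295, 0.508 and 0.340) and for miR-302a with miR-372 (0.267, 0.335 and 0.162). Values of some listed genes and some matched sequences are not reported here. Totals were 13047400 to 35040778 reads, and CPM values near the level of 3 reads are imprecise.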

Additional observations from a re-analysis of the deposited data

Results flagged for a closer look

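The response to miR-1 and to miR-122 differed for both measured members, by a direct test in the same batch. OAS3 was lower with miR-1 by -1.20 on the log2 scale (adjusted p = 7.4e-08 by edgeR) and SAMD9 by -0.78 (adjusted p = 8.1e-05 by edgeR), in 2 of 2 libraries each. Of all 14348 tested genes, 31.2% passed this comparison, and how many showed no overlap of libraries was not counted. SAMD9 lay above both controls with miR-122 (0.30, not called). Its call with miR-1 against empty vector was lost with DESeq2 (adjusted p = 0.0723), while its direct difference passed there (adjusted p = 4.3e-04).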

How the results depend on the processing

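SAMD9 rests on as few as 6 reads per library. With more than 1 CPM required in every library, members below every control numbered 1 in place of 2 with each AAGUGCU-seed miRNA, because SAMD9 was filtered out. With miR-1, members called lower were 1 in place of 2 with DESeq2, and 1 to 2 when a library was left out. With miR-133a, members called were 1 in place of 0 with only the 2 groups in the fit and with a replicate block (OAS3, edgeR adjusted p = 0.0376), where the libraries share only a number. With miR-155 they were 0 to 1 when a library was left out. For no other comparison did the replicate block change the number of members called. With the empty vector numbers crossed, an alternative chosen after seeing the data, 4445 genes were called with miR-1, against 2939 with the block and 3520 without it.

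Leaving out a library turned the direction of SAMD9 in 3 comparisons in which it was not called. The ranges were -0.13 to 0.14 for miR-133a against miR-155 (-0.02 without miR-133a replicate 1, -0.13 without miR-155 replicate 3) and -0.25 to 0.02 for miR-155 against empty vector (0.018 without miR-155 replicate 3). For miR-302a against miR-372 the range was -0.25 to 0.27 (0.27 without miR-302a replicate 3, 0.17 and 0.10 without miR-372 replicates 1 and 3).

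Listed pathway genes called, recounted with a library left out (chosen after seeing the data), ranged from 5 to 24 (miR-1), from 3 to 9 (miR-122), from 1 to 2 (miR-133a), from 2 to 5 (miR-155), from 15 to 19 (miR-302a), from 20 to 25 (miR-372) and from 12 to 15 (miR-373). With DESeq2 they were 5 for miR-1 and 8 for miR-155, and with no filter 10 for miR-155, against 24 and 5. The count for miR-155 was 2 without empty vector replicate 2, empty vector replicate 3 or miR-155 replicate 2, and 3 without miR-155 replicate 1. For miR-122 it was 9 without empty vector replicate 2, and for miR-133a 1 without empty vector replicate 2. The cause was not tested. Of 447 values recomputed, 405 were taken as unchanged. For a fold change this meant no change in direction or call, or a move smaller than the spread between replicates. For a count it meant an equal count or a ratio of at most 1.5.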
